A study of Mus musculus with 50 samples.

Results

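The hypoxia response genes are 10 transcripts that many cells raise when oxygen runs low, namely *Vegfa*, *Slc2a1*, *Car9*, *Pdk1*, *Ldha*, *Bnip3*, *Adm*, *Egln3*, *Ndrg1* and *Pgk1*. They were found as the rows of the gene count table whose Ensembl identifiers carry these symbols, 10 of 37469 genes, and *Ca9* is spelled *Car9* in the mouse annotation. All 10 passed the filter on low counts, which left 19327 genes to test. Bulk RNA sequencing covered 48 p53/MCA sarcomas, with 8 primary and 4 transplant libraries for each of 4 treatments, which combined 0 or 20 Gy of radiotherapy (RT) with an isotype control antibody or the anti-PD-1 antibody muDX400 (200 µg given intraperitoneally). All tumors grew in the gastrocnemius muscle of mice on a 129/SvJae background and were harvested 3 days after treatment. Primary tumors arose in Trp53 fl/fl mice aged 6 to 10 weeks after an adenovirus expressing Cre (Adeno-Cre) and the carcinogen 3-methylcholanthrene (MCA) had been injected into the muscle, so each came from its own transformed cells. Transplant tumors grew from 50000 injected cells of 402230, 1 line made from 1 primary p53/MCA sarcoma, so all 16 share 1 origin. Nothing in the labels said how the libraries of a group related to cages or dates, and p-values measure the spread between these libraries. They do not cover the spread between transplanted lines, so a difference between the models cannot be told apart from a trait of this line.

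As background, cells sense oxygen through the prolyl hydroxylases of the Egln family. With oxygen present these enzymes mark the alpha subunits of the hypoxia-inducible factors (HIF) for binding by the von Hippel-Lindau protein and destruction. When oxygen falls, HIF alpha builds up, pairs with Arnt and binds a short core sequence near genes that bring in vessels, shift energy production from respiration to glycolysis and adjust acidity. Sarcomas grow fast and are unevenly supplied with blood, and such transcripts are widely used as a readout of poorly oxygenated tumor tissue. Several of them also respond to growth factor signaling, to inflammation and to the metabolic state of the cell. Whole tumors were sequenced here, so fewer cells of a type and less RNA per cell cannot be told apart.

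The 10 genes fall into 4 roles, and positions are in GRCm38 (mm10). The signals to vessels are *Vegfa* (ENSMUSG00000023951.17, chr17:46016993-46032369), which encodes the main growth factor for blood vessels, and *Adm* (ENSMUSG00000030790.15, chr7:110627661-110629820), which encodes the vessel-widening peptide adrenomedullin. The genes of sugar use are *Slc2a1* (ENSMUSG00000028645.11, chr4:119108711-119137983), the glucose transporter GLUT1, *Pgk1* (ENSMUSG00000062070.12, chrX:106187100-106203699), the glycolytic enzyme phosphoglycerate kinase, and *Ldha* (ENSMUSG00000063229.15, chr7:46841475-46855627), which turns pyruvate into lactate. The genes that act on mitochondria are *Pdk1* (ENSMUSG00000006494.11, chr2:71873224-71903858), a kinase that keeps pyruvate out of respiration, and *Bnip3* (ENSMUSG00000078566.8, chr7:138890836-138909519), which promotes the removal of mitochondria. The remaining genes are *Egln3* (ENSMUSG00000035105.5, chr12:54178981-54203860), an oxygen sensor that is itself a HIF target, *Car9* (ENSMUSG00000028463.14, chr4:43506966-43513729), a carbonic anhydrase at the cell surface that handles acid, and *Ndrg1* (ENSMUSG00000005125.13, chr15:66929318-66969640), a stress-responsive gene. The annotation places an antisense gene over *Slc2a1*, *Car9*, *Bnip3*, *Adm* and *Ndrg1*, and since the counting strand was not stated, reads of such partners cannot be told apart from theirs.

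Promoter sequences are shown for 4 members, *Bnip3* with *Pgk1* and *Slc2a1* with *Vegfa*, pairs whose covariation is described further on and whose windows hold from 4 places to none, because HIF binds a core of 5 letters, ACGTG or GCGTG, in its target genes. In RefSeq (GRCm38.p6) the 250 bases before a start held this core, on either strand, in 10 of 12 windows of the members (83.3%) and in 38.6% of 32851 promoters of all genes. At least 2 places were found in 50% of the member windows and in 13.5% of all promoters. *Ndrg1* had no entry. The member windows also had a higher median GC content, 59.4% against 52.4%, which bears on how often letters such as these occur. Each sequence is written 5′ to 3′ along the gene's strand and ends at or just before the start of the annotated gene, and capitals mark the core or its reverse complement.
*Bnip3* (chr7:138909520-138909756, minus strand, 4 places): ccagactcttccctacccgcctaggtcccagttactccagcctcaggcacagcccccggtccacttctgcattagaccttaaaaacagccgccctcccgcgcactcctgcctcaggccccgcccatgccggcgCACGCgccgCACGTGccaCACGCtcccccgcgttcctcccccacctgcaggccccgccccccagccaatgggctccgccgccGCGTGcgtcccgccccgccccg
*Pgk1* (chrX:106186850-106187099, plus strand, 2 places): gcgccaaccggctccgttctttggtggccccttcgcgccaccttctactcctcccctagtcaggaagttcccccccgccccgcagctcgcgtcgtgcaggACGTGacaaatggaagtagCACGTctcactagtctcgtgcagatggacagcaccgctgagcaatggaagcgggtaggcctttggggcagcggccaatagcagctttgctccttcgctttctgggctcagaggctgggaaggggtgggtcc
*Slc2a1* (chr4:119108495-119108710, plus strand, 1 whole place, and the first letters of a core that runs on into the gene): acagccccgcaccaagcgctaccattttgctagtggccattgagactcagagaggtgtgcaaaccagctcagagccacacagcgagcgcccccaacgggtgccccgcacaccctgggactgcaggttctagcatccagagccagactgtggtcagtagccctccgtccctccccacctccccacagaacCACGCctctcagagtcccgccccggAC
*Vegfa* (chr17:46032378-46032627, minus strand, 0 places): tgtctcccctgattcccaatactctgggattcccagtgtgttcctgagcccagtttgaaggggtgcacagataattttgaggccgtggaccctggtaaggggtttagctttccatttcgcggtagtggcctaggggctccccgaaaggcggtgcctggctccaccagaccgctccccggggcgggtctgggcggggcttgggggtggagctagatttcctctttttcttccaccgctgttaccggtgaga
A match is a run of letters and not a binding site. The *Vegfa* window has none, although a window at another annotated start of the gene has 2, and sites farther from the start were not searched.

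The 48 libraries held between 31810461 and 54008259 counts each. Levels are given as CPM, a gene's counts relative to the counts of its library, after trimmed-mean scaling, and differences as log2 fold changes with their standard error (SE). Unless stated otherwise a gene is said to change when its Benjamini-Hochberg adjusted p, from edgeR's quasi-likelihood test in 1 fit of the 48 tumors, is under 0.05 over all 19327 genes. Markers of 7 other cell types the tumors can hold were followed as lists beside these genes. Skeletal muscle is the widest of them, with summed levels of 9 markers from 12.7 to 72618 CPM in primary tumors and from 70.8 to 18344 CPM in transplant tumors. All the markers of endothelium, macrophages and neutrophils were detected in each group.

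Per kilobase of exon, which allows genes to be compared with each other, the 2 glycolytic enzymes led. The median level over the 48 tumors was 196 CPM per kb for *Ldha* and 176 for *Pgk1*. A middle tier followed with *Slc2a1* at 34.4, *Bnip3* at 25.9, *Vegfa* at 24.2 and *Ndrg1* at 21.1 CPM per kb. *Egln3* stood at 13.0, *Adm* at 6.96, *Pdk1* at 4.41 and *Car9* at 1.25 CPM per kb. The middle tier lies within the range of each of its members from tumor to tumor, so its inner order carries no weight.

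The members differed in how far they ranged. *Car9* spanned 1.03 to 70.4 CPM across the 48 tumors, a 68.7-fold range that rests on 41 to 3601 counts. *Adm* ranged 39.0-fold, from 2.47 to 96.3 CPM. *Bnip3* and *Vegfa* ranged 14.6-fold and 14.4-fold, *Egln3* 11.4-fold and *Slc2a1* 9.84-fold. The metabolic enzymes were the steadiest, with 4.64-fold for *Pgk1*, 4.44-fold for *Pdk1* and 3.55-fold for *Ldha*, and *Ndrg1* ranged 4.94-fold. Within groups the SD of log2 CPM among primary tumors ran from 0.51 for *Ldha* to 1.34 for *Adm*, against a median of 0.52 over all genes tested. Among transplant tumors it ran from 0.31 for *Pgk1* to 1.02 for *Adm*, against 0.40. The share of a gene's variance that lay between the 8 groups was 30.8% for *Vegfa* and 6.16% for *Adm*, the highest and the lowest of the members, and 25.4% for the median gene.

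**Figure D1:**
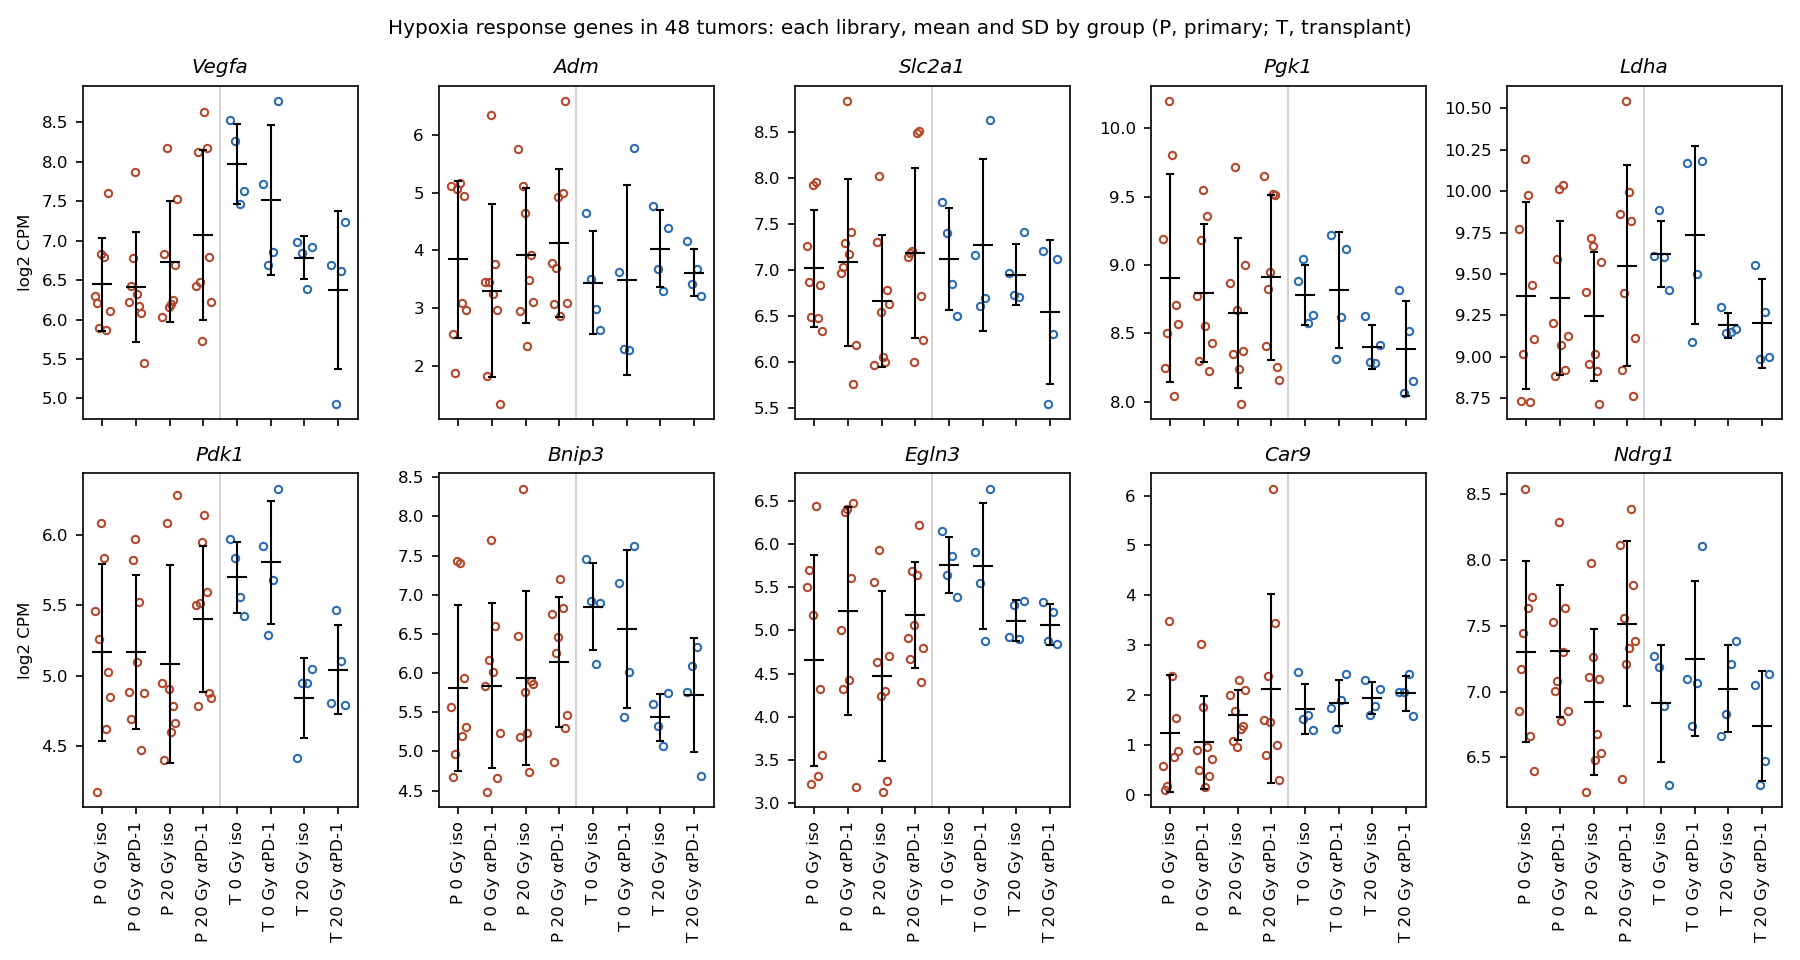
Level of each hypoxia response gene in 48 tumors, as log2 CPM on the y axis, by group on the x axis (P, primary; T, transplant; αPD-1, anti-PD-1; iso, isotype control). Each circle is 1 library, the horizontal bar is the group mean and the whiskers are 1 SD (n = 8 primary or 4 transplant tumors). *Vegfa*, *Pdk1* and *Bnip3* sit lower in the irradiated than in the unirradiated isotype transplants, and 1 irradiated primary tumor stands far above the others for *Car9*.

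The first comparison asked whether the transplants, all of 1 line, and the primary tumors differ in these genes. Of the 10, only *Vegfa* differed in any of the 4 treatments, and it did so in untreated tumors. *Vegfa* measured 369.9, 306.7, 176.3 and 198.6 CPM in the 4 transplant tumors given 0 Gy and isotype. In the 8 primary tumors of the same treatment it ranged from 58.2 to 194 CPM with a median of 76.3. The highest primary tumor lay between the transplant tumors and the other 7 lay below, so the groups met only at that tumor. On the log2 scale transplants were higher by 1.47 (SE 0.46, adjusted p from edgeR = 0.0327), a comparison in which 10.3% of all genes passed the test and the median over all genes was -0.01. The other 9 members did not pass, with values from -0.67 for *Adm* to 0.73 for *Bnip3*.

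The *Vegfa* call sits close to the threshold. Leaving out 1 library at a time kept the log2 fold change between 1.26 and 1.71, but the adjusted p ran from 0.0145 to 0.125 and the call was lost for 8 of the 12 libraries, namely transplant replicates 1, 2 and 4 and primary replicates 1, 2, 3, 6 and 8. Marker lists moved with these groups as well: the summed neutrophil level was 64.7 to 213 CPM in the untreated transplants and 13.6 to 79.8 CPM in the untreated primary tumors, and summed skeletal muscle was 70.8 to 18344 against 57.5 to 5525 CPM. Summed T cell markers were at 36.6 to 85.7 CPM in these transplants and 7.68 to 42.9 CPM in the primary tumors, and 1 of the 6 passed as higher. None of the markers of muscle, neutrophils, macrophages or endothelium passed the test in this comparison. The part of these cell types in the *Vegfa* difference was not tested. A fit with the muscle level as a covariate also called *Vegfa*, but such a fit cannot decide what part muscle content has in it.

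With anti-PD-1 and 0 Gy *Vegfa* measured 211.4, 103.6, 115.99 and 436.1 CPM in transplants, and between 43.6 and 234.2 CPM, median 77.3, in primary tumors. The ranges overlapped, the log2 fold change was 1.18 (SE 0.46) and the adjusted p was 0.112. No member passed there, where 7.35% of all genes did. After 20 Gy with isotype the log2 fold change of *Vegfa* was -0.13 (SE 0.48), and after 20 Gy with anti-PD-1 it was -0.85 (SE 0.50). Again no member passed, with 4.87% and 6.76% of all genes called. With RT and anti-PD-1 combined, the values of the 10 members were all negative, from -1.55 for *Car9* to -0.21 for *Egln3*, with adjusted p from 0.129 to 0.836. The median of the members was -0.68 beside -0.04 over all genes, of which 53.4% were negative. The members covary from tumor to tumor, as described further on, so a sign they share, here or below, is not 10 separate results. These 4 comparisons share no library.

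Averaged over the 4 treatments, 0 of the 10 members differed between the models, while 34.8% of all genes did. The members lay between -0.45 for *Adm* and 0.42 for *Vegfa*, with a median of -0.06 beside 0.00 over all genes, and 0 had an unadjusted p under 0.05. The closest to the threshold was *Ndrg1*, at -0.34 (SE 0.17, adjusted p = 0.123). DESeq2 and limma voom also called 0 of the 10 in this average.

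Other genes of the pathway were called about as often as genes at large, 22 of 63 on the 4 lists (34.9%) beside 34.8% of all genes in the average over treatments. Among 9 genes of oxygen sensing, 3 were higher in transplants and 1 lower when averaged over treatments. *Arnt2*, a partner subunit of HIF alpha, was higher by 1.41 (SE 0.23), *Hif1a*, the HIF-1 alpha subunit, by 0.35 and *Vhl* by 0.34, and *Arnt* was lower, at -0.34. Of 15 other glycolysis genes, 5 were higher and 2 lower, among them the lactate exporter *Slc16a3* at 0.91, the hexokinase *Hk2* at 0.69, *Pfkfb4* at 0.48 and the phosphofructokinase *Pfkl* at -0.48. Of 24 other HIF target genes, 3 were higher and 1 lower, with higher calls led by the glycogen branching enzyme *Gbe1* at 1.14 (SE 0.14), and followed by the carbonic anhydrase *Car12* at 0.75 and *Cited2*, a negative regulator of HIF, at 0.57. Of 15 ligands and receptors of vessel growth, 1 was higher and 6 lower. These included *Vegfc* at -1.43 and its receptor *Flt4* at -1.40, both best known for lymphatic vessels, *Vegfd* at -0.73, and the vessel-stabilizing ligand *Angpt1* at 0.96. The adjusted p of the genes named here ran up to 0.0338. All 6 T cell markers, 1 neutrophil marker and 1 adipose marker were also higher in transplants in this average. In it 1 of 8 endothelial and 1 of 8 macrophage markers were lower. The part of these cell types in the differences above was not tested.

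In untreated tumors alone, where *Vegfa* was higher in transplants, 8 of the 63 listed genes passed (12.7%), beside 10.3% of all genes. The other vessel genes that passed were *Flt4* (-1.72), *Angpt1* (1.68), *Vegfc* (-1.66) and *Nrp2* (-1.17), so 1 of 15 was higher and 3 were lower. *Flt4* averaged 11.4 ± 2.96 CPM (SD, n = 4) in the untreated transplants and 37.4 ± 15.6 CPM (SD, n = 8) in the untreated primary tumors. *Slc16a3* (2.06) and *Hk2* (1.17) were higher in transplants among the glycolysis genes, and *Gbe1* (1.53) and *Cited2* (0.65) among the HIF targets. None of the 9 oxygen sensing genes passed in this comparison.

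The second comparison asked what RT changed. In transplant tumors, values of 9 of the 10 members were lower after 20 Gy than after 0 Gy when averaged over the antibodies, and none passed the test. The median of the members was -0.52 beside -0.02 over all genes, and 53.0% of all genes had a negative value. An unadjusted p under 0.05 was reached by 4 members and by 19.5% of all genes, and 7.23% of all genes passed after adjustment. *Pdk1* and *Vegfa* missed the threshold by the least.

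For *Vegfa* the isotype groups did not overlap. The irradiated transplants measured 126.6, 114.8, 83.5 and 120.7 CPM, all below the 176.3 to 369.9 CPM of the unirradiated ones. Those unirradiated libraries are the same in which *Vegfa* was higher than in untreated primary tumors, so these results are not separate. The interaction described below uses them as well. In the anti-PD-1 arm the irradiated transplants measured 103.7, 30.4, 98.1 and 151.4 CPM, against 211.4, 103.6, 115.99 and 436.1 CPM without RT, and the groups overlapped. The average log2 fold change was -1.21 (SE 0.40, adjusted p = 0.0519), with -1.24 in the isotype arm and -1.18 in the anti-PD-1 arm.

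*Pdk1*, the brake on pyruvate entry into respiration, had a similar pattern. With isotype it measured 62.8, 57.0, 47.1 and 42.9 CPM at 0 Gy and 21.4, 30.8, 30.9 and 33.1 CPM at 20 Gy. With anti-PD-1 it measured 60.4, 39.1, 51.2 and 80.3 CPM at 0 Gy and 27.9, 44.2, 34.5 and 27.7 CPM at 20 Gy. The isotype groups were separate, and in the anti-PD-1 arm 1 irradiated tumor lay above 1 unirradiated tumor. The average log2 fold change was -0.82 (SE 0.27, adjusted p = 0.0517), from -0.85 with isotype and -0.78 with anti-PD-1.

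*Bnip3*, the mitophagy receptor, measured 175.6, 120.98, 69.1 and 119.1 CPM in unirradiated and 48.6, 39.9, 33.5 and 53.8 CPM in irradiated isotype transplants, again with no overlap. With anti-PD-1 it measured 142.6, 43.3, 64.8 and 197.0 CPM at 0 Gy and 54.3, 68.1, 80.4 and 25.8 CPM at 20 Gy, where the groups did overlap. Its average log2 fold change was -1.22 (SE 0.48, adjusted p = 0.124), the most negative of the members. *Egln3* measured 70.9, 49.9, 58.1 and 41.8 CPM at 0 Gy and 30.2, 39.1, 29.7 and 40.4 CPM at 20 Gy with isotype, and its average was -0.73 (SE 0.42, adjusted p = 0.356).

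*Ldha*, the lactate dehydrogenase, averaged 794.2 ± 111.6 CPM in unirradiated and 584.5 ± 31.2 CPM in irradiated isotype transplants (SD, n = 4 each). The lowest unirradiated tumor was at 676 and the highest irradiated one at 631 CPM. Its average log2 fold change was -0.51 (SE 0.23, adjusted p = 0.197). *Slc2a1* (-0.53), *Pgk1* (-0.42), *Ndrg1* (-0.24), *Adm* (-0.06) and *Car9* (0.18) completed the set, with adjusted p between 0.428 and 0.983.

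In the isotype arm, then, *Vegfa*, *Pdk1*, *Bnip3*, *Egln3* and *Ldha* were lower in all 4 irradiated than in all 4 unirradiated transplants, 5 of the 10 members beside 4.49% of all genes. In the anti-PD-1 arm this held for 0 members and 3.24% of all genes. Within either arm the test called 0 members, with 1.92% of all genes called in the isotype arm and 0.595% in the anti-PD-1 arm. The median of the members was -0.42 with isotype and -0.69 with anti-PD-1.

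The calls differed between fits. The fit of all 48 tumors shares 1 estimate, and 32 of the 48 are primary tumors, in which the median SD over all genes was 0.52 log2 units beside 0.40 in transplants. A fit of the 16 transplants alone called 5 members lower in the average of the 2 arms, *Pdk1* (adjusted p = 0.00275), *Bnip3* (0.0145), *Egln3* (0.0261), *Vegfa* (0.0286) and *Ldha* (0.0429), against 13.7% of the 17746 genes it tested; it differs from the fit of 48 both in the tumors and in the genes, and which of them moved the calls was not tested. A separate fit of the isotype transplants alone called *Bnip3*, *Vegfa* and *Pdk1* lower in that arm, and its share of all genes called is not given here. DESeq2 on the 48 tumors called *Vegfa* (adjusted p = 0.0252) and *Pdk1* (0.0329), against 9.31% of all genes. With 1 library left out at a time from the fit of 48, *Vegfa* passed in 4 of 16 cases, without replicate 3 of the untreated, replicate 2 or 3 of the anti-PD-1 or replicate 4 of the RT and anti-PD-1 transplants (adjusted p from 0.0353 to 0.0496). *Pdk1* passed in 2 of 16, without replicate 2 of either anti-PD-1 group (0.043 and 0.0474). The log2 fold changes stayed between -1.36 and -0.91 and between -0.89 and -0.72.

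Markers of macrophages moved the other way in the same comparison. The summed level of 8 macrophage markers was 2792 to 3210 CPM in unirradiated and 3896 to 6030 CPM in irradiated isotype transplants, and 2002 to 4747 against 3716 to 9592 CPM with anti-PD-1. In the average of both arms 4 of the 8 passed as higher. The part of macrophage content in the lower values of the hypoxia response genes was not tested.

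Of the other pathway genes, 4 of 63 passed in irradiated transplants (6.35%), close to the 7.23% of all genes. The aldolase *Aldoc* was lower (-1.65, SE 0.46, adjusted p = 0.0183), at 8.51 ± 2.04 CPM at 0 Gy and 2.66 ± 0.62 CPM at 20 Gy with isotype (SD, n = 4 each), and it was the only one called of 15 glycolysis genes. Of 24 HIF targets, the transcription factors *Bhlhe40* (-0.88) and *Mxi1* (-0.71) were lower and none was higher. Among 15 vessel genes, *Kdr*, the main receptor for the *Vegfa* product on endothelium, was higher (0.98, SE 0.27), at 30.6 ± 9.09 and 69.8 ± 13.7 CPM with isotype. None of the 9 oxygen sensing genes passed, and their median was 0.00. The medians of the glycolysis genes and the HIF targets were -0.38 and -0.35, beside -0.02 over all genes.

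**Figure D2:**
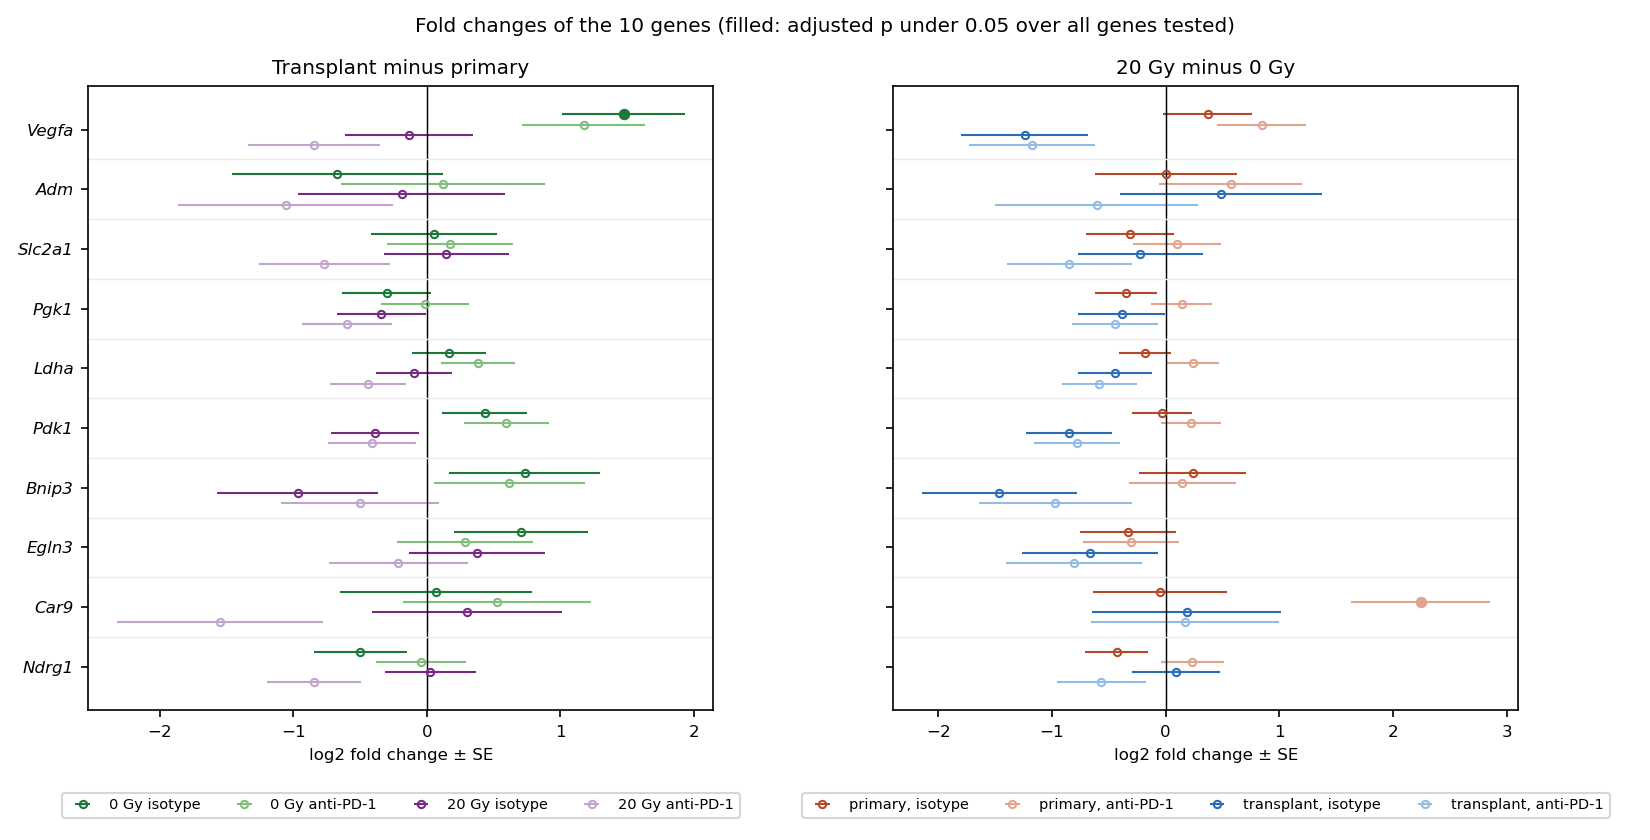
Log2 fold change ± SE of the 10 genes (x axis, from the fit of 48 tumors) for transplant minus primary tumors in each treatment (left) and for 20 Gy minus 0 Gy in each model and antibody arm (right). Filled circles passed at an adjusted p under 0.05, which were *Vegfa* in untreated tumors (1.47) and *Car9* after RT with anti-PD-1 in primary tumors (2.24).

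In primary tumors only *Car9* passed after RT. Averaged over the antibodies it was higher after 20 Gy by a log2 fold change of 1.10 (SE 0.42, adjusted p = 0.0419), in a comparison where 31% of all genes passed. The isotype arm gave -0.05 (SE 0.59), where 18.3% of all genes passed and 0 members did, and the anti-PD-1 arm gave 2.24 (SE 0.61, adjusted p = 0.013), where 11.2% passed.

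The *Car9* call rests on 1 tumor. Among the 8 irradiated primary tumors of the anti-PD-1 arm, replicate 5 had 70.4 CPM and replicate 6 had 10.8 CPM, and the other 6 lay between 1.17 and 5.14 CPM. The 8 given anti-PD-1 alone lay between 1.06 and 8.11 CPM with a median of 1.70, beside a median of 2.73 CPM with RT. Without replicate 5 the log2 fold change in this arm was 0.56 (adjusted p = 0.438) and in the average of the arms 0.27 (adjusted p = 0.538). In that average the call was lost in 16 of 32 cases when 1 library was left out, 6 untreated (replicates 1, 2, 3, 6, 7 and 8), 6 given anti-PD-1 (1, 2, 5, 6, 7 and 8), 3 given RT (1, 3 and 5) and replicate 5 of both. Beside that last tumor the adjusted p of these stayed between 0.0506 and 0.0641. The tool limma voom did not make it (0.79, adjusted p = 0.134). Replicate 5 also had the lowest summed macrophage level of its group (1526 CPM), the lowest T cell level (2.52 CPM) and the highest cell cycle level (1158 CPM), and the lowest *Adm* (7.26 CPM).

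The remaining members did not pass in primary tumors. *Vegfa* had a log2 fold change of 0.61 (SE 0.28, adjusted p = 0.089) in the average of the arms. Its medians were 76.3 CPM untreated, 77.3 with anti-PD-1, 89.4 with RT and 99.8 with both, and each group's range overlapped all the others. The medians of the 10 members were 0.06 in the average, -0.11 with isotype and 0.23 with anti-PD-1, beside 0.00, -0.01 and 0.02 over all genes. Values were positive for 6, 3 and 9 of the 10, while 49.6%, 51.1% and 47.6% of all genes were negative.

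Of the other pathway genes, 15 of 63 passed in irradiated primary tumors (23.8%), beside 31% of all genes. Of 15 glycolysis genes 5 were higher and none lower, led by *Slc16a3* (1.0), *Hk2* (0.89), *Pfkfb4* (0.74) and *Pfkp* (0.66). Of 9 oxygen sensing genes, *Hif1an*, a hydroxylase that curbs HIF activity (0.52), and *Hif1a* (0.42) were higher. Of 24 HIF targets 3 were higher and 2 lower, among them *Angptl4* (0.88), *Hmox1* (0.70), *Cited2* (0.57) and *Plod2* (-0.47). Of 15 vessel genes *Angpt1* was higher (0.94) and *Vegfd* (-0.63) and *Nrp1* (-0.43) were lower. Markers of muscle (7 of 9), macrophages (6 of 8) and neutrophils (5 of 6) were higher in this comparison as well, and their part in these changes was not tested. *Hk2* and *Slc16a3* are also known for their expression in skeletal muscle.

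The test of whether RT acted differently in the models called none of the members. The interaction, which is the RT effect in transplants minus that in primary tumors, was negative for all 10, from -1.82 for *Vegfa* to -0.14 for *Ndrg1*. The median of the members was -0.48 beside -0.01 over all genes, of which 51.2% were negative. Since the members covary from tumor to tumor, their shared sign is not 10 separate results. *Vegfa* had an SE of 0.48 and an adjusted p of 0.157, *Pdk1* -0.91 (adjusted p = 0.339) and *Bnip3* -1.41 (adjusted p = 0.461). Only 5 of the 19327 genes passed, or 0.0259%. DESeq2 called 69 genes (0.357%), *Vegfa* among them with -1.82 and an adjusted p of 0.0418. A difference between the models in the RT response of *Vegfa* passed with DESeq2 and not with edgeR or limma voom.

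The third comparison asked what anti-PD-1 changed. Averaged over the doses it called none of the members in primary tumors, where 3 of all genes passed (0.0155%), and none in transplant tumors, where 0 of all genes passed (0%). In primary tumors the members lay between -0.04 for *Bnip3* and 0.80 for *Car9*, with adjusted p from 0.731 to 0.986. In transplants they lay between -0.25 for *Vegfa* and 0.17 for *Pdk1*, all with an adjusted p of 1, and 383 genes of all tested had an unadjusted p under 0.05. In transplants DESeq2 called 1 gene and limma voom 0, with no member among them. None of the 4 pathway lists had a called gene in either model.

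Much of the variation of the hypoxia response genes lay between tumors of the same group, and there they rose and fell together. Each tumor's deviation from its group mean in log2 CPM was compared between members over the 48 tumors. All 45 pairs were positively correlated, with Pearson's r from 0.22 to 0.88 and a median of 0.53 (median Spearman's rho 0.53). Of the 45, 42 passed at an adjusted p under 0.05 in a permutation test within groups, two-sided, adjusted over 85 relations. Pairs of genes at large were not tested in this way, so the count of 42 has no share of all pairs beside it. All 45 were also positive within the 32 primary tumors, with a median of 0.53, and within the 16 transplants, with a median of 0.61.

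The closest pair by r was *Bnip3* and *Pgk1*, with r = 0.88 and rho = 0.86, and r = 0.86 without the 2 tumors farthest from the median of *Bnip3*. *Ldha* and *Pgk1*, which act in the same pathway, had r = 0.87 and rho = 0.93, a higher rho than the first pair, and *Vegfa* and *Slc2a1* had r = 0.82 and rho = 0.81, or 0.92 and 0.78 for r without the 2 farthest tumors. The permutation p of these 3 pairs was 1e-05, the smallest that the permutations can give, and 7.73e-05 for r after adjustment. *Car9* and *Adm* were the least alike, with r = 0.22 (permutation adjusted p = 0.225) and rho = 0.38 (adjusted p = 0.0309), and r = 0.39 without the 2 farthest tumors. That pair had r = 0.17 in primary tumors and 0.78 in transplants. *Pgk1* and *Pdk1* went the other way, with 0.85 in primary tumors and 0.27 in transplants, and neither difference was tested.

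**Figure D3:**
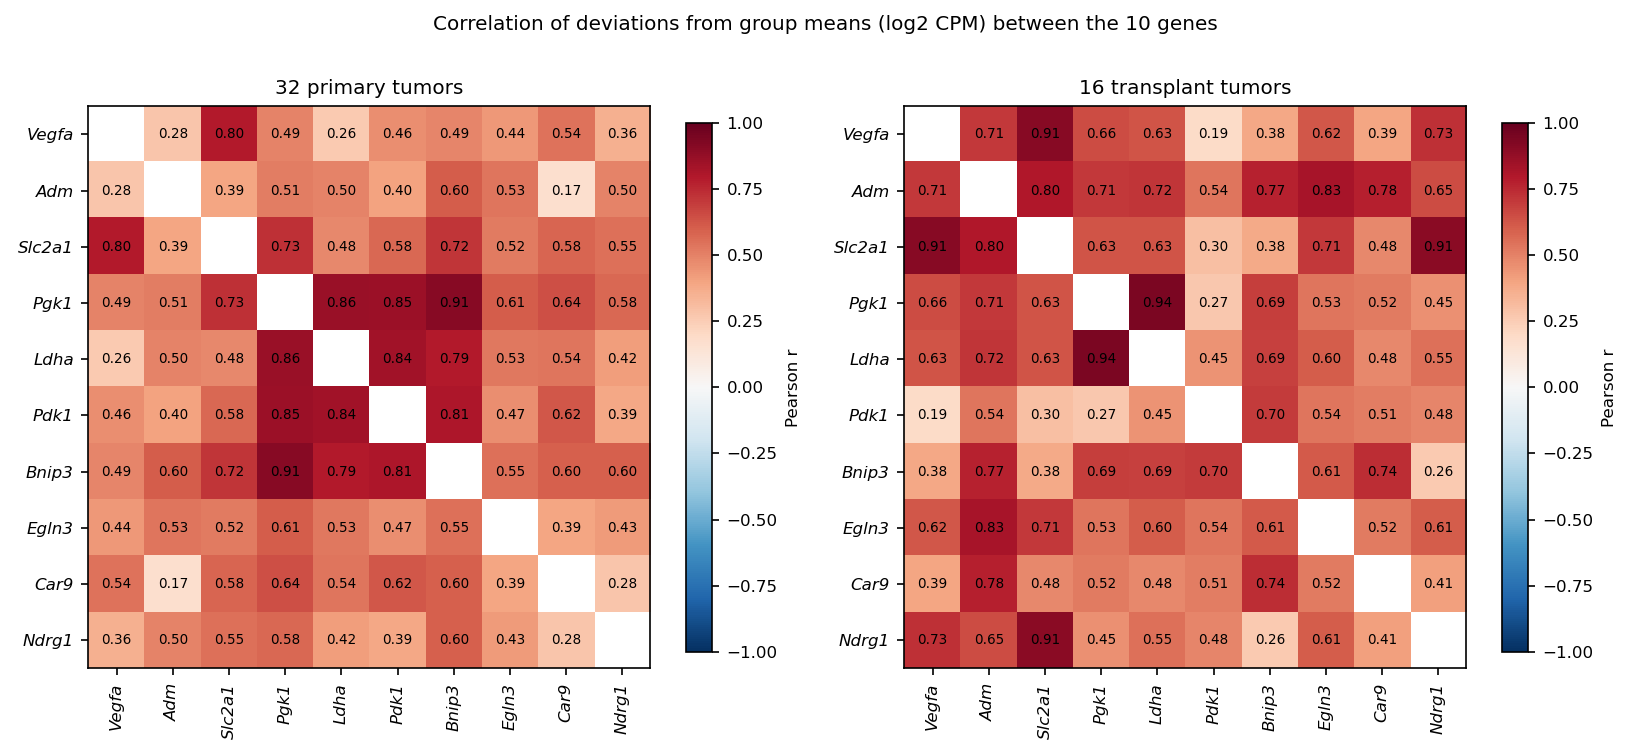
Pearson's r between the hypoxia response genes, computed on deviations of log2 CPM from the group mean, in the 32 primary tumors (left) and the 16 transplant tumors (right). The color runs from -1 to 1, and all 45 pairs are above 0 in both panels.

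A few tumors were high or low for most members. Transplant replicate 1 of the untreated group was the highest of its 4 tumors for 8 of the 10 genes, and replicate 4 of the anti-PD-1 group for 9 of the 10. In the primary groups the tumor that most often ranked first was replicate 4 of the untreated group (6 genes), replicate 4 of the anti-PD-1 group (7 genes), replicate 3 of the RT group (7 genes) and replicate 5 of the combined group (4 genes). Replicate 2 of the transplants given anti-PD-1 was the lowest for 8 genes and replicate 4 of the untreated transplants for 7.

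**Figure D4:**
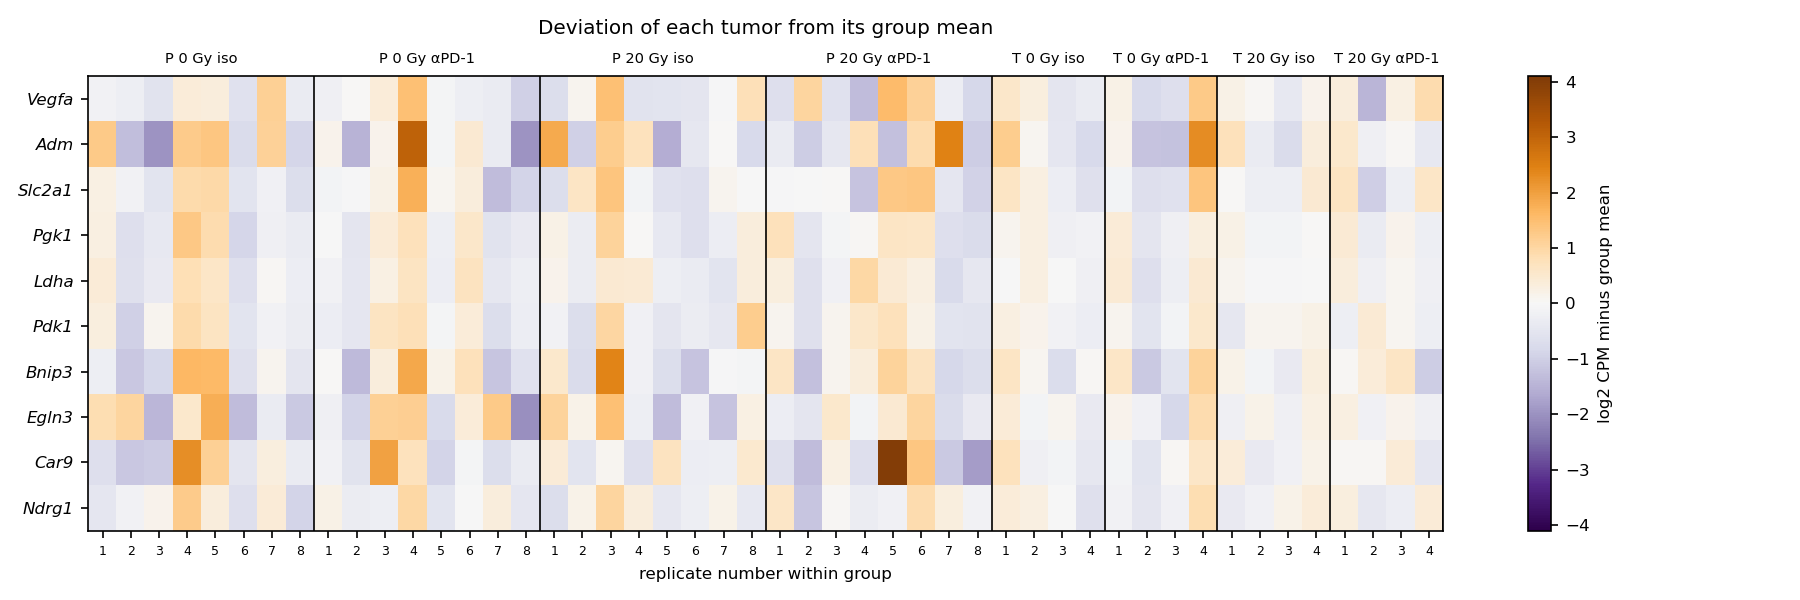
Deviation of each tumor from its group mean in log2 CPM (color) for the 10 genes (rows) in the 48 tumors (columns, numbered within the 8 groups; P, primary; T, transplant; αPD-1, anti-PD-1; iso, isotype). Single columns are orange or purple over most rows, as in replicate 4 of the primary and of the transplant tumors given anti-PD-1, and *Car9* in replicate 5 of the primary tumors given RT and anti-PD-1 is the darkest cell.

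Outside the set, the genes most like the mean of the 10 members were found among 11731 genes by the same deviations, as a description with no test, since the points share their libraries. The nearest were *Pfkl* (r = 0.87), *Ero1l* (0.87), *Fam162a* (0.85), *Higd1a* (0.83), *Pgam1* (0.81), *Dhrs7* (0.80), *Mif* (0.79), *Bsg* (0.78), *Hilpda* (0.78) and *P4ha2* (0.78). *Pfkl* and *Pgam1* encode glycolytic enzymes, *Ero1l* an oxidase of protein folding, *Bsg* a partner of lactate transporters, *Hilpda* a lipid droplet protein and *P4ha2* a collagen prolyl hydroxylase. The median of r over all genes was 0.03, and 26 genes reached 0.7.

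By list, 10 of 14 glycolysis genes and 12 of 23 other HIF targets had r of at least 0.5, beside 412 of 11731 genes. Their medians were 0.66 and 0.50. Of 8 oxygen sensing genes only *Egln1*, a prolyl hydroxylase that is itself a HIF target, reached 0.5, with 0.59. *Epas1*, the HIF-2 alpha subunit, which is abundant in endothelium, had -0.42. Of 15 vessel genes, the *Pgf* ligand had 0.75 and the endothelial receptor *Tek* had -0.55, and the median was -0.12.

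Cell type markers were set beside these genes in the same way. The macrophage list was negatively related to *Vegfa* (r = -0.62, rho = -0.52, permutation adjusted p = 0.000793 and 0.00438) and to *Slc2a1* (r = -0.52, rho = -0.44, permutation adjusted p = 0.00425 and 0.013). Without the 2 tumors farthest in macrophage level r was -0.51 and -0.40. For *Vegfa* r was -0.58 within primary tumors and -0.74 within transplants. The other 8 members had r between -0.42 and 0.00 and did not pass for r, and *Ndrg1* passed for rho alone (-0.34, permutation adjusted p = 0.0435). The neutrophil list was positively related to the members, with r from 0.28 to 0.52 and 4 of 10 passing for r. Without the 2 tumors farthest in neutrophil level r was 0.07 to 0.39, so these relations rest in part on those tumors. It was 0.30 to 0.67 within primary tumors and -0.40 to 0.21 within transplants, a difference that was not tested. The muscle list had r from -0.42 to -0.07, with 4 passing, the strongest *Vegfa* (-0.42, or -0.44 without the 2 farthest tumors), and the endothelial list from -0.39 to 0.12, 1 passing.

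The line behind the transplants, 402230, was sequenced in 2 further libraries, 1 labelled as the parental primary tumor and 1 as the cell line, each without a replicate. Their markers go against these labels. The library labelled as a primary tumor had summed levels of 3.75 CPM for macrophages, 3.80 for endothelium and 0.20 for T cells, with 0 counts of *Adgre1* and *Robo4*. The library labelled as a cell line had 1871 CPM for macrophages, 509 for endothelium, 218 for skeletal muscle, 188 for red blood cells and 4.08 for T cells, and 3 of its 5 adipose markers were at 0. The values are therefore given by label only and entered none of the main tests, and they were scaled over all 50 libraries. The library labelled as a primary tumor was added to the untreated primary tumors in an alternative fit only.

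The library labelled as the cell line lay within the range of the 4 untreated transplants for 9 of the 10 members, and within that of all 16 transplants for 10. It was below for *Egln3*, at 32.6 CPM against 42.0 to 70.6. Its *Vegfa* stood at 314.9 CPM and its *Bnip3* at 143.3 CPM. Scaled by library totals alone, *Ndrg1* lay above the untreated transplants.

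The library labelled as the primary tumor lay within the range of the 8 untreated primary tumors for 7 members. *Ldha* was above, at 1328 CPM against 417 to 1137. *Ndrg1* was below, at 45.9 CPM against 82.0 to 362, and *Car9* was below at 0.16 CPM, which rests on 7 counts. *Vegfa* was at 103.6 CPM and *Bnip3* at 44.8 CPM, while *Pgk1* was at 718 CPM beside 414 CPM in the library labelled as the cell line. *Slc2a1* (131.7 and 146.9 CPM), *Pdk1* (49.8 and 47.6 CPM) and *Egln3* (33.8 and 32.6 CPM) were close between the libraries. With 1 library each, these differences have no replicate check.

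**Figure D5:**
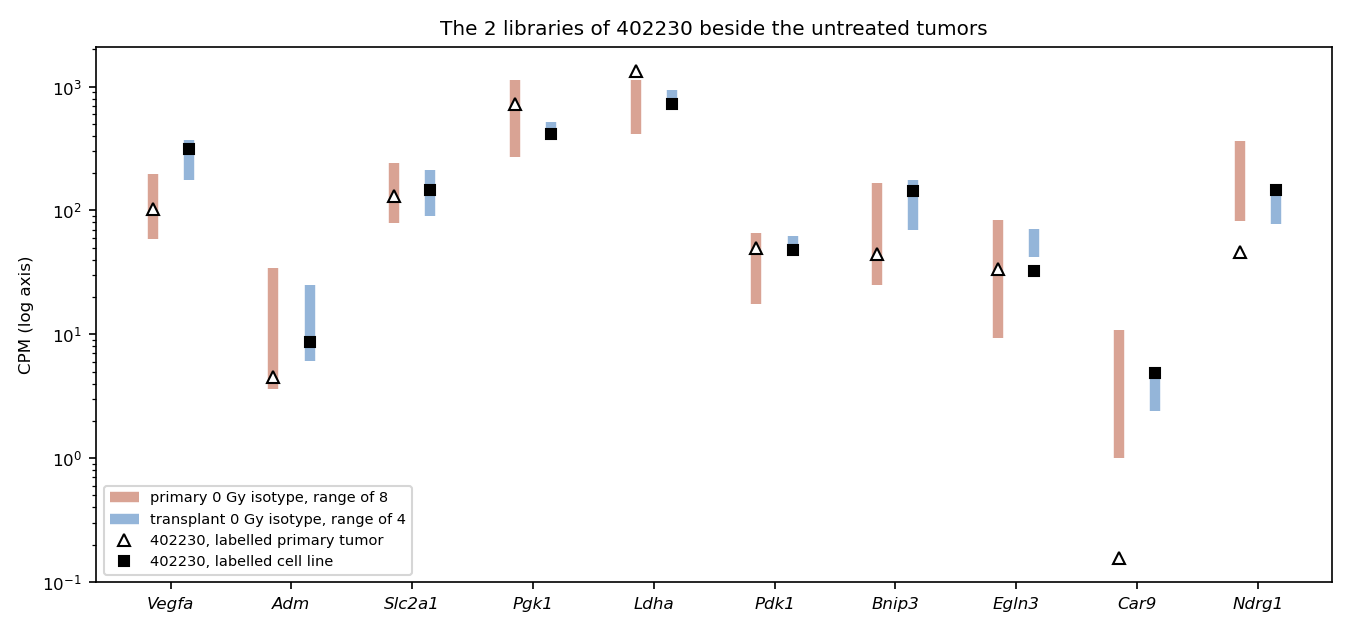
Levels of the 10 genes (CPM, log axis, scaled over 50 libraries) in the 2 libraries of 402230, as labelled, beside the range of the 8 untreated primary tumors (red bars) and of the 4 untreated transplants (blue bars). *Car9* and *Ndrg1* of the library labelled primary tumor lie below the bar of the primary tumors.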

How the data were processed

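RNA of 48 mouse tumors and 2 libraries of line 402230 was measured by bulk sequencing of polyadenylated RNA with stranded libraries. Per the study's methods the authors used Trimmomatic 0.36 for trimming, STAR for alignment to mm10 and HTSeq for counting per gene; the deposited table holds raw counts, and whether counting used the strand was not given in the sources used here. Gene names, lengths and positions came from GENCODE M21 (GRCm38). The 10 members, the pathway lists and the tests were chosen with earlier results of these data known. Groups came from the labels, which give no batch, and no 2 tumor libraries of the same group agreed within sampling noise. Libraries of different groups and the 2 libraries of 402230 were not compared in this way.

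Counts were filtered by group with filterByExpr, scaled by trimmed means (TMM) and fitted with edgeR 4.0.16 in R 4.3.3 (robust quasi-likelihood, 1 mean per group, two-sided, Benjamini-Hochberg over 19327 genes). Log2 CPM used a prior count of 2. Alternatives were DESeq2 1.42.0, limma 3.58.1 with voom, other scaling, no filter, a muscle covariate, only the groups compared, the library labelled parental tumor added, and leaving out each library; the last was planned for transplants and added for primary tumors after the data were seen. Correlations were computed in Python 3.11.15 with scipy 1.17.1 and tested with 100000 permutations within groups. In data simulated from these libraries, with 200 genes changed, the fit recovered 72% of genes changed by 1 log2 unit between the models and 67% after RT in primary tumors. RT in transplants, the single arms and the interaction were not simulated, so these shares do not apply to them. In the data 6729 genes passed between the models and 5996 after RT in primary tumors, far more than were changed in the simulation. The simulation also used 1 spread per gene for both models, so its shares may not hold for these data.

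From each pathway list, up to 4 called genes with the largest change were named per comparison, and, outside the members, the 10 genes most like their mean among those with a mean log2 CPM of at least 2. One listed gene with 2 identifiers was left out, and 1 result for another listed gene is not reported here.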

Additional observations from a re-analysis of the deposited data

Results flagged for a closer look

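Of 80 sets of 1 gene in 1 group, 2 held a library set apart from the rest of its group, and chance sets apart about 1 in 20. Both came from transplant replicate 1 of the RT and isotype group. Its *Pdk1* was 4.42 log2 CPM, below the other 3 tumors, of which the nearest was at 4.95, a gap that makes up 0.839 of the group's range. Its *Ldha* was 9.30 log2 CPM, above the others, of which the nearest was at 9.17, a gap of 0.843 of the range.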

How the results depend on the processing

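Over 3780 values of single members under the alternatives, 3721 kept their direction and their side of the threshold, or did not pass in either setting, 32 lost a call, 27 gained one and 0 called values changed sign. A further count of 217 values that did not pass changed sign. *Vegfa* in untreated transplants against primary tumors kept its call with other scaling, DESeq2, limma voom and the muscle covariate and lost it without the filter on low counts (0 members called, adjusted p = 0.0648), where more genes were tested. Leaving out 1 library gave 0 to 1 members called there. *Car9* after RT in primary tumors was not called in the average of the arms by limma voom, without the filter or in the fit of the groups compared, nor in the anti-PD-1 arm by limma voom (adjusted p = 0.19), with the muscle covariate (0.0679) or in the fit of the groups compared (0.129), each with 0 members called. Leaving out 1 library gave 0 to 2 members in either. For RT in transplants, averaged over antibodies, 2 members were called by DESeq2, 1 by limma voom (*Pdk1*, adjusted p = 0.0432), 2 with the muscle covariate, 5 in the fit of the 16 transplants and 0 to 2 when 1 library was left out, and in the isotype arm 3 in the fit of that arm's libraries. In the average, DESeq2 called 9.31% of all genes and the fit of the 16 transplants 13.7% of those it tested, beside 7.23% in the main fit. Shares of all genes for the other settings are not given here, so those counts of members have no reference. The muscle covariate gave 1 call (*Vegfa*) in transplants against primary tumors, both averaged over treatments (0.64, adjusted p = 0.0223) and with anti-PD-1 alone (1.47, adjusted p = 0.0272), and leaving out 1 library gave 0 to 1 in each: *Ndrg1* without transplant replicate 4 of the anti-PD-1 group (-0.43, adjusted p = 0.047) and *Vegfa* without primary replicate 4 of that group (1.51, adjusted p = 0.0304). DESeq2 called 1 member in the interaction. Scaling by library totals put 1 member of the library labelled cell line above the untreated transplants in place of 0. Except where given, the cause was not tested. *Car9* rests on as few as 41 counts in a tumor, and the lowest levels limit what can be seen for it. No paired analysis was possible because replicate numbers were given in accession order and pair nothing.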
